A study of Mus musculus with 24 samples.

Results

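The comparison is of mouse vibrissa follicles cultured with panthenyl ethyl ether and pyridoxine hydrochloride together (PEE-PH) against follicles cultured with pyridoxine hydrochloride alone (PH), that is, PEE added to PH. Its members were the 6 of 24 arrays whose titles name these 2 treatments, 3 for each. PEE-PH follicles received 0.3% PEE and 0.015% PH, and PH follicles received 0.015% PH. All 6 samples were RNA of 10 follicles from B6C3F1 mice at postnatal day 9, kept for 24 h in RPMI 1640 medium with 10% fetal bovine serum, and the 3 replicates of a group came from 3 independent experiments. The labels do not say how many animals gave the follicles of a sample. The series measured follicles with PEE, PH and tocopherol acetate (TA, 0.024%) singly, in pairs and all together, and control follicles with none of them, by one-colour Agilent arrays. Its title names hair shaft elongation and signalling by placental growth factor and its receptor VEGFR-1 as its subject.

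Vibrissa follicles are the large sensory hair follicles of the snout, in which an epithelial bulb builds the hair shaft and its sheaths around a dermal papilla, inside a capsule that holds a blood sinus and nerve endings. PEE is an ether of panthenol, the alcohol form of vitamin B5, which cells use to make coenzyme A, and PH is a form of vitamin B6, whose phosphate is a cofactor of many enzymes of amino acid metabolism. NRF2 is a transcription factor that switches on genes of glutathione synthesis and detoxification when cells meet reactive compounds. SREBP2 switches on cholesterol synthesis when membrane sterol runs low. Type I interferons act through a cell surface receptor to switch on antiviral genes.

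Levels are given as relative signal, the processed signal of a probe divided by the 75th percentile of signal on the same array, for replicates 1, 2 and 3 in that order. Changes are PEE-PH minus PH on the log2 scale, with the standard error and the Benjamini-Hochberg adjusted p of limma over all 22065 genes or transcripts tested, n = 3 arrays per group. A gene is said to have risen or fallen where that adjusted p was under 0.05. Signals of different probes are not compared with each other, since each probe has its own efficiency. Probe positions are those of the files, on mm9.

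On the 3 PEE-PH arrays 59.4 to 60.3% of spots were well above background, and on the 3 PH arrays 58.4 to 59.9%, with 0 saturated spots. The 75th percentile of signal was 199 to 217 on PEE-PH arrays and 180 to 192 on PH arrays, so the brighter arrays were those with PEE. Across genes, which are not independent replicates, r was 0.993 to 0.997 between arrays within a group and 0.989 to 0.994 between PEE-PH and PH arrays. Each replicate number lay on 1 slide that held 1 array of each group. The tissue matched its label: hair shaft keratins (16 of 16 listed), 41 of 42 keratin-associated proteins and 16 of 17 inner root sheath markers were measured, and the sheath keratin Krt71 had a relative signal of 490 to 535 in PEE-PH follicles and 428 to 543 in PH follicles. Skeletal muscle markers were measured as well, 22 of 22 listed, and are described with their own values further on. In whole follicles, fewer cells of a type and less RNA per cell cannot be told apart.

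Adding PEE to PH raised 1134 genes or transcripts and lowered 1648, of which 118 and 189 changed at least 2-fold. These are 5.14% and 7.47% of those tested, and the median of all was -0.03. The list counts below are to be read against these shares. The count of 2782 fell to 1376 without PEE-PH replicate 1 and 1610 without PH replicate 3, and was 1402 with array signal as a covariate and 894 with only these 6 arrays in the fit. Without all arrays of 1 replicate number, which leaves 4 of the 6, it was 634 to 965. Among the 15 named genes with the largest rise, by the rule given with the processing, were detoxification enzymes and stress proteins (Gsta3, Gsta2, Gsta4, Slc7a11, Hmox1, Nqo1, Ahrr), neuronal cytoskeleton genes (Nefm, Nefl, Map7d2), muscle genes (Myh4, Ckmt2), the spectrin gene Sptbn5 and Dipk1c. Among the 15 largest falls were chemokines and cytokines (Cxcl9, Cxcl10, Ccl12, Ppbp, Csf2), interferon beta and interferon-induced genes (Ifnb1, Ifit1bl1, Tgtp2, Gbp4, Mx1), the retinoic acid hydroxylase Cyp26a1, the epidermal protease Klk14, the nucleoside transporter Slc28a2, Ms4a4d and Lncbate1. After normexp background correction the calls of Ahrr, Nefm, Nefl, Map7d2, Sptbn5 and Dipk1c ended, and the changes of Mx1, Cxcl9, Csf2, Ms4a4d, Slc28a2, Cyp26a1 and Lncbate1 shrank to -0.84, -1.74, -0.50, -0.37, -0.34, -0.32 and -0.29 without losing theirs. Arrays left out in turn ended the calls of Ms4a4d and Lncbate1 in 4 of 6 cases each (adjusted p up to 0.189 and 0.0712) and those of Ckmt2 and Myh4 in 4 and 3 (up to 0.12 and 0.114). The call of Ms4a4d also ended under 7 of 9 other alternatives.

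NRF2 targets rose on all 3 slides by nearly the same amount (medians 0.71, 0.79 and 0.77). Of 40 listed genes 37 were tested, and 33 rose, 0 fell and 4 did not pass, where 5.14% of all genes rose. The list median was 0.73, against -0.03 for all genes. This list, like the others, was chosen with earlier results of these data known, so the contrast with all genes is not an independent test. Haem oxygenase 1, which degrades haem (Hmox1, chromosome 8, 77624406 to 77624466), had a relative signal of 93.8, 98.7 and 106 in PEE-PH follicles, against 29.04, 22.3 and 21.1 in PH follicles. It rose by 2.05 ± 0.11 (adjusted p = 5.28e-09), and the groups did not overlap, as for 14.5% of all genes in this direction. The cystine importer Slc7a11, which feeds glutathione synthesis, had 1.02, 1.21 and 1.28 with PEE-PH, against 0.232, 0.184 and 0.254 with PH, a rise of 2.39 ± 0.18 (adjusted p = 9.73e-08). The quinone reductase Nqo1 had 1.304, 1.42 and 1.52 with PEE-PH, against 0.451, 0.399 and 0.443 with PH, a rise of 1.72 ± 0.13 (adjusted p = 1.44e-07). The regulatory and catalytic subunits of glutamate-cysteine ligase, which makes the first link of glutathione, rose together. Gclm had 19.02, 19.8 and 19.2 with PEE-PH, against 7.02, 7.24 and 7.19 with PH (rise of 1.44 ± 0.10, adjusted p = 9.52e-08), and Gclc rose by 0.83 ± 0.12 (adjusted p = 0.000228). Sulfiredoxin, which repairs overoxidised peroxiredoxins, had 30.6, 32.8 and 36.6 with PEE-PH, against 14.3, 12.4 and 12.97 with PH for Srxn1, a rise of 1.33 ± 0.09 (adjusted p = 6.38e-08). The glutathione reductase Gsr, the epoxide hydrolase Ephx1, the biliverdin reductase Blvrb, the ferritin light chain Ftl1 and the aldehyde dehydrogenase Aldh3a1 rose by 0.61, 0.84, 0.68, 0.53 and 1.04. The 4 members that did not pass, among them Akr1b8 (0.07) and Ugdh (-0.14), had overlapping arrays. Left out in turn, each of the 6 arrays left 30 to 33 members risen, and each replicate number 25 to 29.

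The plot of signal on each array shows these values beside genes described later.

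**Figure D1:**
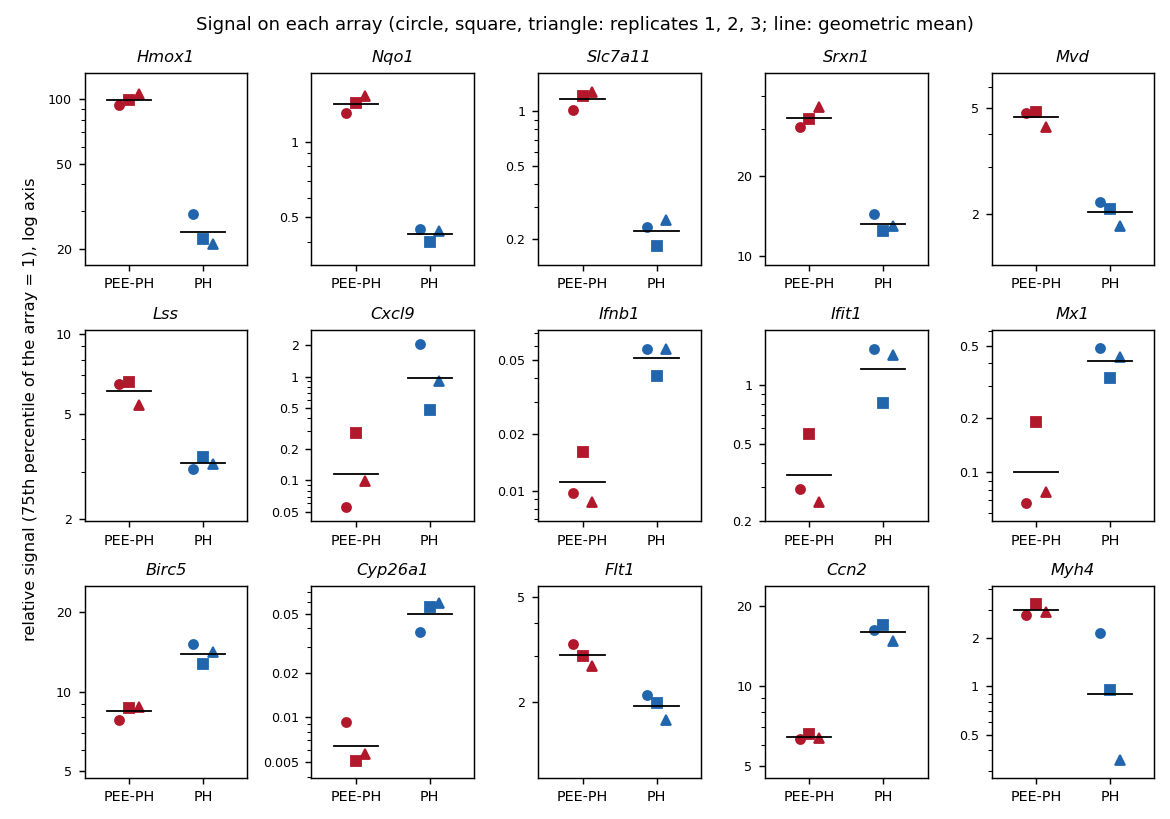
Relative signal of 15 genes on each PEE-PH array (left, red) and PH array (right, blue), on log axes with the 75th percentile of the array as 1; markers are replicates 1, 2 and 3 and lines geometric means of 3 arrays. The groups are far apart for Hmox1 (93.8 to 106 with PEE-PH, 21.1 to 29.0 with PH), while the 3 PH arrays differ widely for Cxcl9 (0.478 to 2.05) and Myh4 (0.348 to 2.14).

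Glutathione transferases, which couple glutathione to reactive compounds, held the largest rise among the genes named here. Of 28 listed 25 were tested, and 12 rose and 0 fell, with a median of 0.29, where 5.14% of all genes rose. Gsta3 (chromosome 1, 21255189 to 21255248) had 1.33, 1.499 and 1.56 with PEE-PH, against 0.141, 0.118 and 0.145 with PH, a rise of 3.44 ± 0.22 (adjusted p = 3.23e-08), which is 10.9-fold. Gsta2 had 2.27, 2.48 and 3.22 with PEE-PH, against 0.578, 0.408 and 0.404 with PH (rise of 2.52 ± 0.18, adjusted p = 9.52e-08), Gsta4 rose by 1.76 ± 0.14 (adjusted p = 4.44e-07) and the mu class member Gstm4 by 1.35 ± 0.16 (adjusted p = 2.6e-05). Genes of this family are close in sequence, and a probe of one may take up RNA of another, so the share of each is uncertain. The other 13 members did not pass.

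The antioxidant response element, to which NRF2 binds with small MAF proteins, has the core TGACNNNGC. It was searched in both orientations in the 250 bases before the first listed start of each gene (RefSeq, GRCm38.p6), where it was found for 6 of 28 risen NRF2 targets with a promoter in that table and for 10.2% of all 27025 promoters. The 2 with the largest rise among them are shown to place the motif, which is in capitals, in the gene's own orientation. A match is a description and not a site, and a promoter without one may hold it elsewhere. Gsta3 is on the plus strand at chr1:21240335-21240584 and Gclm on the plus strand at chr3:122245307-122245556.
Gsta3: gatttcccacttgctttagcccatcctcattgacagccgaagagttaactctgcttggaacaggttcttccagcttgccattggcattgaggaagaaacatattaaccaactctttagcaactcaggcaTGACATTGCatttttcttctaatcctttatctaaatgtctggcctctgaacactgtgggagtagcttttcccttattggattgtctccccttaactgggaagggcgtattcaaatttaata
Gclm: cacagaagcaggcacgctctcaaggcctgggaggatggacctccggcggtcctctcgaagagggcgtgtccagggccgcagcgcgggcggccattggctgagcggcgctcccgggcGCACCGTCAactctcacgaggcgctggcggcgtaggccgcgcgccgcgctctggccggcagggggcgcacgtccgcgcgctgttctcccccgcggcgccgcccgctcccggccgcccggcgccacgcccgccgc

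NADPH is the cofactor that reduces glutathione and thioredoxin. Of 25 genes of its supply and of the thioredoxin system 12 rose and 2 fell (median 0.23). Among all genes 5.14% rose and 7.47% fell. The pentose phosphate enzyme Pgd, an NRF2 target as well, had 18.7, 19.4 and 20.7 with PEE-PH, against 9.73, 9.09 and 8.89 with PH, and rose by 1.08 ± 0.10 (adjusted p = 2.62e-06). The thioredoxin inhibitor Txnip and the cytosolic isocitrate dehydrogenase Idh1 rose by 0.92 and 0.68, while the peroxiredoxin Prdx5 and the mitochondrial isocitrate dehydrogenase Idh2 fell by 0.25 and 0.21, calls that ended in 3 and 5 of 6 cases when 1 array was left out (adjusted p up to 0.186 and 0.155). Of 10 catalases, peroxidases and superoxide dismutases tested, 2 rose. Catalase (Cat), which breaks down hydrogen peroxide, had 3.02, 3.097 and 2.79 with PEE-PH, against 1.54, 1.502 and 1.35 with PH (rise of 1.02 ± 0.10, adjusted p = 4.99e-06), and the epithelial peroxidase Gpx2 rose by 0.70 ± 0.15 (adjusted p = 0.00509). Among 21 genes of haem and iron handling 6 rose and 3 fell: the haem transporter Slc48a1 rose by 1.01 ± 0.09 (adjusted p = 1.61e-06) and the first enzyme of haem synthesis, Alas1, by 0.36 ± 0.06 (adjusted p = 0.00128), while the later enzymes Uros, Cpox and Alad fell by 0.33, 0.28 and 0.23. Without PEE-PH replicate 1 or 3 or PH replicate 2 or 3, 1 of these falls was left.

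Cholesterol synthesis rose nearly as a whole. Of 24 tested genes of this list, 1 more having no probe of its name, 23 rose and 0 fell. The list median was 0.61, and 5.14% of all genes rose. Mevalonate diphosphate decarboxylase (Mvd, chromosome 8, 124957750 to 124957809) had 4.81, 4.84 and 4.25 in PEE-PH follicles, against 2.21, 2.08 and 1.803 in PH follicles. It rose by 1.19 ± 0.12 (adjusted p = 4.39e-06). The late sterol enzyme Lss had 6.46, 6.57 and 5.39 with PEE-PH, against 3.103, 3.42 and 3.23 with PH, a rise of 0.91 ± 0.08 (adjusted p = 7.06e-07), and Tm7sf2 rose by 1.14 ± 0.15 (adjusted p = 6.15e-05). In these 3 genes every PEE-PH array was above every PH array, as in 14.5% of all genes. The gene of the transcription factor itself, Srebf2, was the member that did not pass (0.17, arrays overlapping). Left out in turn, each array left 21 to 23 members risen, while 11, 14 and 22 rose without all arrays of replicate number 1, 2 and 3.

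Of the risen members of this list 1 held the sterol regulatory element TCACNCCAC in the 250 bases before its start, of 15 with a promoter in the RefSeq table, and 1.04% of all promoters held it. It was Hmgcs1, the first committed enzyme of the mevalonate pathway, which rose by 0.73 and is named for this match after its value was seen. Its sequence is on the plus strand at chr13:119690101-119690350 (GRCm38.p6), with the match in capitals.
Hmgcs1: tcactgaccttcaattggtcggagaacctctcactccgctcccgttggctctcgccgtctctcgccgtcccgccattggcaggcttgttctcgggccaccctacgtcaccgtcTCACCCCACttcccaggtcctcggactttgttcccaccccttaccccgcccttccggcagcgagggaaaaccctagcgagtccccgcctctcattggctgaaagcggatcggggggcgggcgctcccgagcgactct

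Fatty acid synthesis changed in part, with 12 of 24 genes higher and 1 lower (median 0.28), where 5.14% of all genes rose and 7.47% fell. The 12 became 7 without PEE-PH replicate 1, 8 without PH replicate 3, 6 with array signal as a covariate and 7 with only these 6 arrays in the fit. The acetyl-CoA synthetase Acss2, which makes acetyl-CoA for lipid synthesis, had 1.25, 1.21 and 1.28 with PEE-PH, against 0.616, 0.559 and 0.501 with PH, a rise of 1.16 ± 0.13 (adjusted p = 1.51e-05). Fasn and Scd2, which build and desaturate fatty acids, rose by 0.65 ± 0.08 (adjusted p = 3.22e-05) and 0.72 ± 0.09 (adjusted p = 4.49e-05). Scd1 did not pass (0.43). The lipid droplet gene Pnpla3 went the other way: it had 0.134, 0.142 and 0.119 with PEE-PH, against 0.33, 0.293 and 0.344 with PH, and fell by 1.30 ± 0.14 (adjusted p = 9.4e-06). Acss2 is also 1 of 19 tested genes of pantothenate and coenzyme A metabolism, of which 2 rose and 0 fell, the other being the pantothenate kinase Pank1 (0.40 ± 0.10, adjusted p = 0.0135), whose call ended without PEE-PH replicate 3 (adjusted p = 0.0511) and after normexp (0.11). Coasy and Pank3 did not pass (0.21 and 0.22). Of 30 tested vitamin B6 salvage genes and enzymes that use its phosphate, 3 rose (Alpl, Alas1 and the pyridoxal kinase Pdxk, 0.26) and 4 fell (Psat1, Shmt1, Bcat1 and Shmt2), with a median of 0.01. The 3 became 5 without PH replicate 1, and the 4 became 2 without replicate 1 or 3 of either group. With only these 6 arrays in the fit 1 of the 30 rose and 0 fell. The call of Pdxk ended without PEE-PH replicate 1 or PH replicate 3 (adjusted p up to 0.12). Its change was -0.0253 with the mean of all its tested probes.

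**Figure D2:**
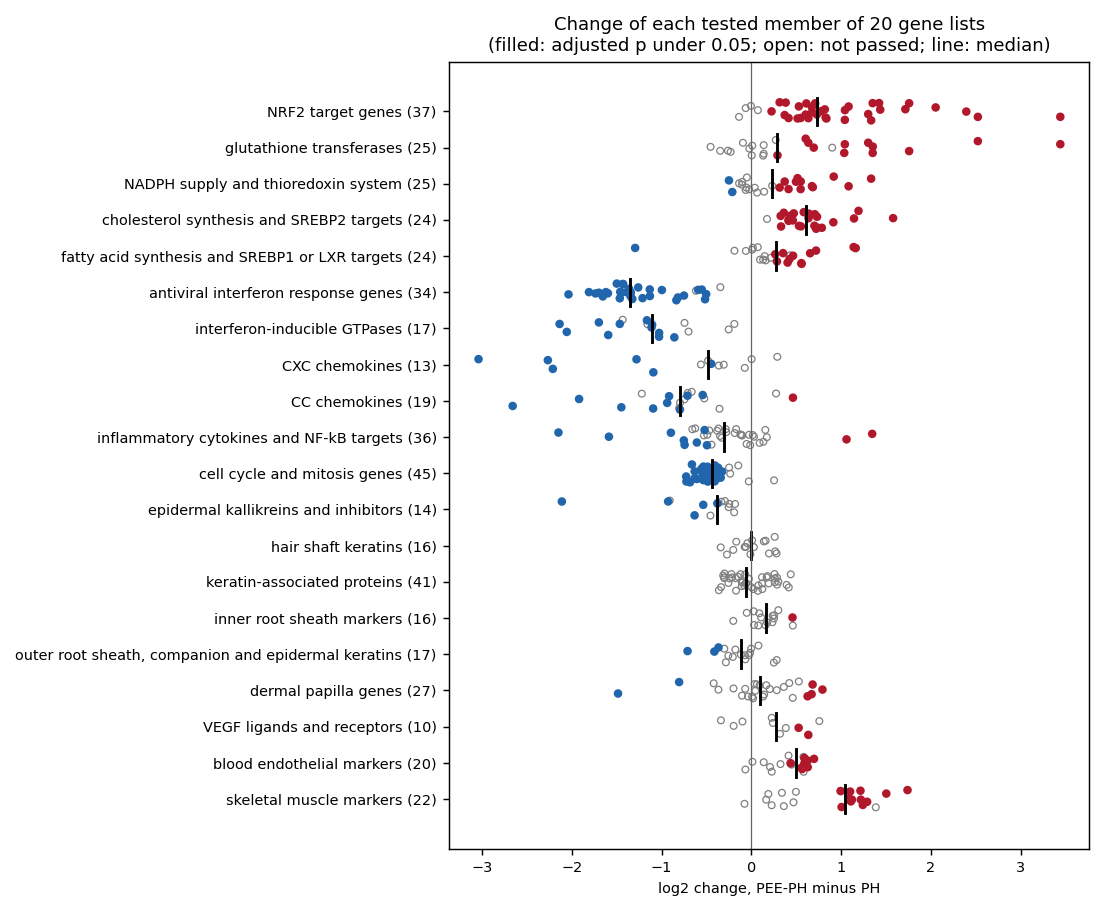
Log2 change, PEE-PH minus PH, of each tested member of 20 gene lists (number of members in parentheses), filled where the adjusted p was under 0.05, with the list median as a line. NRF2 targets (median 0.73) and cholesterol genes (0.61) lie to the right, interferon response genes (-1.35) and cell cycle genes (-0.44) to the left, and hair shaft keratins around 0.

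Interferon response genes were lower in PEE-PH follicles. Of 34 antiviral response genes, all of them tested, 32 fell and 0 rose, with a median of -1.35, where 7.47% of all genes fell. The antiviral GTPase Mx1 (chromosome 16, 97668644 to 97668703) had 0.0681, 0.1903 and 0.0774 in PEE-PH follicles, against 0.483, 0.331 and 0.434 in PH follicles. It fell by 2.04 ± 0.45 (adjusted p = 0.00661). The RNA-binding protein Ifit1 had 0.294, 0.559 and 0.251 with PEE-PH, against 1.53, 0.808 and 1.44 with PH, and fell by 1.81 ± 0.41 (adjusted p = 0.00752), and the ISG15 protease Usp18 fell by 1.74 ± 0.33 (adjusted p = 0.00229). The groups did not overlap, as for 18.8% of all genes in this direction. Replicate 2 of PEE-PH, however, was the highest of its group and replicate 2 of PH the lowest of its own in all 3 genes. Over the whole list, the median difference was -2.06 on slide 1, -0.37 on slide 2 and -1.49 on slide 3. The double-stranded RNA sensor Oas3, well above background on 2 of 3 PEE-PH arrays, fell by 1.70 ± 0.43 (adjusted p = 0.0156) and after normexp by 0.44, and Herc6 and Isg20 did not pass (-0.62 and -0.35). Of 17 tested interferon-inducible GTPases, which attack vacuoles of intracellular microbes, 11 fell and 0 rose (median -1.11), of which Tgtp2 had 0.171, 0.483 and 0.152 with PEE-PH, against 1.66, 0.627 and 1.03 with PH, and fell by 2.14 ± 0.49 (adjusted p = 0.00836). Gbp3 and Iigp1 fell by 1.60 and 1.70.

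The interferon calls rested on the spread estimated over all 24 arrays and on single arrays. The count of 32 antiviral genes became 17 without replicate 1 of either group and 21 without replicate 3 of either group. It was 5 with only these 6 arrays in the fit and 17 when array signal was a covariate. The count of 11 GTPases became 3, 6, 0 and 4 in these settings. Without all arrays of replicate number 1, 2 and 3, the antiviral count was 1, 30 and 7 and the GTPase count 0, 13 and 1. All 34 antiviral genes were lower on every PEE-PH array than on any PH array, as were 18.8% of all genes. The 34 genes were measured on the same 6 arrays and are not independent replicates of this order.

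Interferon beta itself was lower too. Ifnb1 (chromosome 4, 88168023 to 88168082) had 0.00972, 0.0161 and 0.00865 with PEE-PH, against 0.0577, 0.0411 and 0.0577 with PH, and it was not well above background on any PEE-PH array. For such genes only a rough limit on the fold is given, the brighter group's mean against a detection level. Per array, that level was the dimmest probe still well above background, or the gene's own probe if that was brighter. A probe's own detection level may be higher, so the fold may also be smaller than this limit. By this limit Ifnb1 was 2.38-fold lower (limma, adjusted p = 0.00545), the GTPase Gbp4 3.38-fold (0.0113) and Ifit1bl1, a relative of Ifit1 that 2 of 3 PH arrays measured above background, 1.35-fold (0.00382). Among the 8 tested interferons and receptors only Ifnb1 passed. After normexp background correction, which shrinks the changes of dim probes, Ifnb1, Gbp4 and Ifit1bl1 still fell, by 0.36, 0.42 and 0.27.

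The interferon-stimulated response element, known from promoters of antiviral genes, was searched as GAAA, any 2 bases and GAAA, on both strands. It lay in the 250 bases before the start of 10 of 22 fallen antiviral genes with a promoter in the RefSeq table (45.5%), and in 3.04% of all promoters. The 2 with the largest fall among them are shown, matches in capitals: Ifit1 on the plus strand at chr19:34640639-34640888, with 2 matches on its other strand, and Oas3 on the minus strand at chr5:120777660-120777909, with 1 match (GRCm38.p6).
Ifit1: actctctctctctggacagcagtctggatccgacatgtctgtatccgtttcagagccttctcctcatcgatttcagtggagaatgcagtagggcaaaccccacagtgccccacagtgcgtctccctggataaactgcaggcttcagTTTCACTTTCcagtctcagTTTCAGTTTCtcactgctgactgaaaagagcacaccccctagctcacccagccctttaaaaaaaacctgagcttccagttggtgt
Oas3: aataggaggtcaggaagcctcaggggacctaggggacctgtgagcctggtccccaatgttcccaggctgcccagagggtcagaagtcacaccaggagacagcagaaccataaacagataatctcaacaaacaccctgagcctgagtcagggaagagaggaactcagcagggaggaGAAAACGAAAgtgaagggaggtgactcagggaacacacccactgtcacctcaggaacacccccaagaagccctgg

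Chemokines passed in part. Of 13 tested CXC chemokines 6 fell and 0 rose (median -0.48), where 7.47% of all genes fell. The T cell attractant Cxcl9 had 0.0558, 0.287 and 0.0991 with PEE-PH, against 2.05, 0.478 and 0.899 with PH, and fell by 3.04 ± 0.75 (adjusted p = 0.0131), with PH replicate 1 the highest and PEE-PH replicate 1 the lowest. Without either of these arrays its call ended (adjusted p up to 0.0806). Cxcl10, which like Cxcl9 is induced by interferons, fell by 2.27 ± 0.71 (adjusted p = 0.0429), and replicates 1 and 3 of both groups each ended that call when left out. The platelet basic protein Ppbp, a neutrophil attractant, was more even: it had 0.248, 0.299 and 0.344 with PEE-PH, against 1.68, 1.097 and 1.37 with PH, and fell by 2.21 ± 0.20 (adjusted p = 1.55e-06). Cxcl3, of the same function, fell by 1.28 ± 0.21 (adjusted p = 0.000643), and Cxcl12 did not pass (-0.31). Of 19 CC chemokines 9 fell and 1 rose (median -0.80). The monocyte attractant Ccl12 had 0.502, 0.838 and 0.769 with PEE-PH, against 6.06, 3.44 and 3.92 with PH. It fell by 2.66 ± 0.27 (adjusted p = 5.49e-06), and no arrays overlapped, as for 18.8% of all genes in this direction. Ccl24 and Ccl11, which attract eosinophils, and Ccl17, which attracts T cells, fell by 1.92, 1.09 and 1.45. The 1 of this list that rose was the membrane-bound Cx3cl1 (0.46 ± 0.14, adjusted p = 0.0308), whose call ended in 5 of 6 cases when 1 array was left out. Leaving out PEE-PH replicate 1 left 3 CXC and 5 CC members fallen, and leaving out PH replicate 1 left 2 and 5. With only these 6 arrays in the fit 1 and 4 fell, and with array signal as a covariate 3 and 4.

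Inflammatory cytokines with NF-kB targets gave 8 falls and 2 rises among 36 tested (median -0.31), where 7.47% of all genes fell and 5.14% rose. The 8 became 4 without replicate 1 of either group, 5 without PH replicate 3 and 4 with array signal as a covariate. Csf2, a growth factor of myeloid cells, had 0.0273, 0.0168 and 0.0321 with PEE-PH, against 0.157, 0.09204 and 0.0889 with PH, and fell by 2.15 ± 0.40 (adjusted p = 0.00186). It was well above background on 2 of 3 PEE-PH arrays, so this size is that of the fit and not a bound, and after normexp it fell by 0.50. The interleukin Il24, the thymic stromal lymphopoietin Tslp and Il15 fell by 1.59, 0.90 and 0.75. Il11 rose: it had 1.77, 2.21 and 2.45 with PEE-PH, against 1.11, 0.776 and 0.678 with PH, a change of 1.35 ± 0.24 (adjusted p = 0.00154). Il19 rose by 1.06 ± 0.30 (adjusted p = 0.0261), with overlapping arrays, and its call ended without replicate 2 or 3 of either group (adjusted p up to 0.153). Nfkbia, which feeds back on NF-kB, did not pass (0.02). Macrophage and myeloid markers were measured for 26 of 26 listed, of which 6 fell and 0 rose (median -0.12), with 3 left without replicate 1 of either group, 2 with array signal as a covariate and 0 with only these 6 arrays in the fit: the Fc receptor Fcgr1, the calcium-binding Aif1, C1qa and Ms4a6c fell by 1.20, 0.63, 0.56 and 0.75, while Lyz2, Cd68 and H2-Ab1 did not pass (0.12, 0.21 and -0.12). The summed signal of the whole list was 81.1, 77.5 and 87.5 with PEE-PH, against 102, 78.3 and 77.4 with PH. Of 11 T and B lymphocyte markers 0 passed (limma, with 1 at an unadjusted p under 0.05). The part of these cells in the chemokine and interferon changes was not tested.

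**Figure D3:**
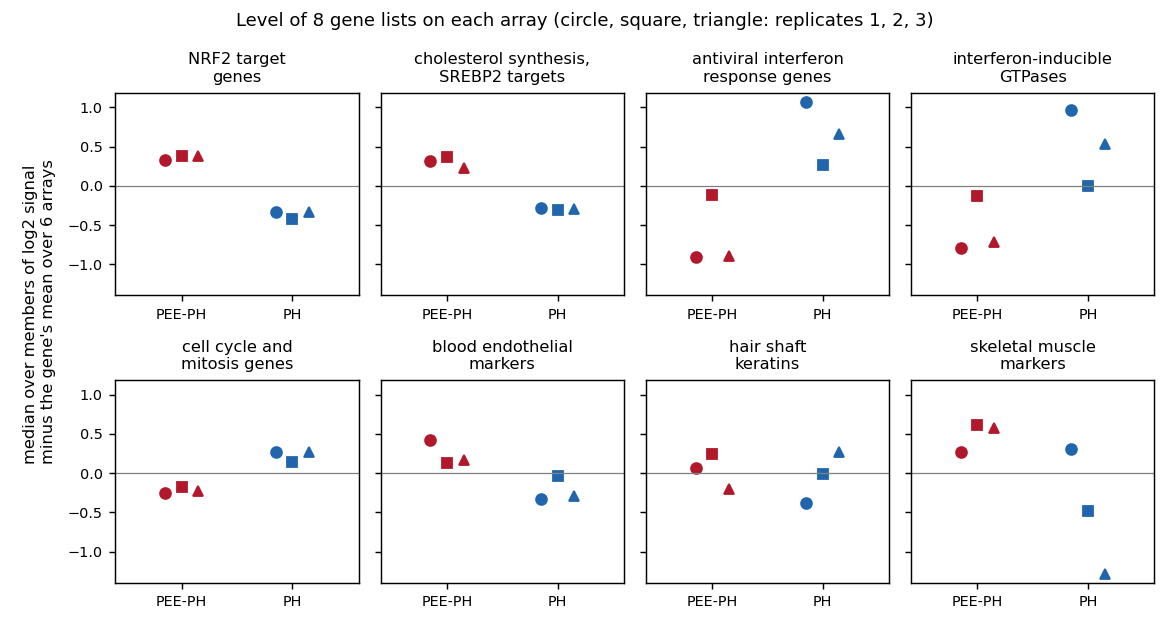
Level of 8 gene lists on each PEE-PH array (left, red) and PH array (right, blue), as the median over members of log2 signal minus the gene's mean over the 6 arrays; markers are replicates 1, 2 and 3. NRF2 and cholesterol lists part the groups evenly, the antiviral list is near -0.12 and 0.26 on the 2 arrays of replicate 2 and far apart on the others, and the muscle list is lowest on PH replicate 3 (-1.28).

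Cell cycle and mitosis genes were lower by a small amount. Of 45 tested, which are all listed, 40 fell and 0 rose, where 7.47% of all genes fell. The list median was -0.44, and the medians by slide were -0.52, -0.35 and -0.48. The inhibitor of apoptosis and spindle gene Birc5 (chromosome 11, 117716959 to 117717018) had 7.83, 8.68 and 8.74 in PEE-PH follicles, against 15.1, 12.7 and 14.1 in PH follicles. It fell by 0.73 ± 0.11 (adjusted p = 0.000354). Thymidine kinase (Tk1), the mitotic entry gene Cdca3 and the cyclin Ccnb2 fell by 0.72, 0.68 and 0.66. The replication clamp Pcna did not pass (-0.25 ± 0.08, adjusted p = 0.0525), nor did Cdk1 (0.25 ± 0.23, adjusted p = 0.529). Left out in turn, each array left 29 to 36 members fallen, while 13, 22 and 15 fell without all arrays of replicate number 1, 2 and 3. The growth factor Hbegf fell by 0.52 ± 0.07 (adjusted p = 0.000119) and the receptor Fgfr1 rose by 0.34 ± 0.07 (adjusted p = 0.00294).

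The CCAAT box, known from promoters of mitotic genes, was found on either strand in the 250 bases before the start of 26 of 34 fallen members with a promoter in the RefSeq table (76.5%), and in 34.5% of all promoters. It has 5 letters and so is met often. Cdca3, the fallen member with the largest change among them, is shown (plus strand, chr6:124829926-124830175, GRCm38.p6), with its 2 matches in capitals.
Cdca3: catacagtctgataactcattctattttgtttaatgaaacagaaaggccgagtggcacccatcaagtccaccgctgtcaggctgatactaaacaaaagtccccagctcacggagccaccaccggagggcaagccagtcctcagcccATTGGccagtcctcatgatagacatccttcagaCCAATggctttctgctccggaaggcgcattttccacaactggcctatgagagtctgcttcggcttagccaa

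Genes of the growing hair itself passed in few cases, where 5.14% of all genes rose and 7.47% fell. Of 16 hair shaft keratins 0 passed (limma, with 1 at an unadjusted p under 0.05), with a median of 0.00 and differences from -0.34 to 0.28. Krt33a had 64.2, 76.04 and 53.9 with PEE-PH, against 52.99, 59.1 and 82.8 with PH, with overlapping groups. Of 41 tested keratin-associated proteins, which crosslink the shaft keratins, 0 passed (0 unadjusted), and their medians by slide were 0.16, 0.47 and -0.71. Of 22 tested matrix and shaft regulators 0 passed (3 unadjusted, median 0.21), and of 16 inner root sheath markers only the deiminase Padi1 rose (0.46 ± 0.12, adjusted p = 0.0205), a call that ended without replicate 1 of either group (adjusted p up to 0.121). Of 17 outer root sheath and epidermal keratins 3 fell. Krt6b, of the companion layer and activated epidermis, had 49.5, 45.5 and 42.7 with PEE-PH, against 85.8, 64.2 and 76.7 with PH, and fell by 0.71 ± 0.13 (adjusted p = 0.00208). The basal keratins Krt5 and Krt14 fell by 0.41 ± 0.09 (adjusted p = 0.00789) and 0.37 ± 0.09 (adjusted p = 0.0103). After quantile normalization, in the authors' value table and with only these 6 arrays in the fit 1 of the 3 falls was left in each case, and without PH replicate 3 the call of Krt14 ended (adjusted p = 0.0536). The epidermal kallikrein proteases, which shed cornified cells, and their inhibitors had 5 of 14 members lower and 0 higher (median -0.38): Klk14 had 0.161, 0.106 and 0.126 with PEE-PH, against 0.597, 0.506 and 0.574 with PH, and fell by 2.11 ± 0.22 (adjusted p = 7.51e-06), and Klk12, Klk13 and Klk6 fell by 0.93, 0.63 and 0.54.

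Signalling genes of the follicle passed in a part of each list. Rises made up 5.14% of all genes, 22.2% of Notch, 20% of Hedgehog, 14.8% of dermal papilla, 7.41% of BMP and 4.35% of Wnt genes. Falls made up 7.47% of all genes, 11.1% of BMP, 7.41% of dermal papilla, 2.17% of Wnt and 0% of Hedgehog and Notch genes. Of 27 dermal papilla genes 4 rose and 2 fell. Rspo2, which amplifies Wnt signalling, had 0.03, 0.0396 and 0.0317 with PEE-PH, against 0.0807, 0.0911 and 0.112 with PH, and fell by 1.49 ± 0.26 (adjusted p = 0.00129), or by 0.36 after normexp, and the activin subunit Inhba fell by 0.81 ± 0.12 (adjusted p = 0.000216), while Bmp6 and alkaline phosphatase (Alpl) rose by 0.79 ± 0.13 (adjusted p = 0.000871) and 0.68 ± 0.16 (adjusted p = 0.00984). In the BMP pathway, 3 of 27 fell and 2 rose: the activin and BMP antagonist Fst had 1.61, 1.96 and 1.96 with PEE-PH, against 4.103, 3.82 and 4.07 with PH, a fall of 1.12 ± 0.12 (adjusted p = 1.51e-05), and the receptor Bmpr1b fell by 0.76. Of 46 Wnt genes 2 rose (Wnt16, 0.73, which was -0.01 after normexp, and Sfrp4, 0.63) and 1 fell (Wnt7a, -0.80), and of 15 Hedgehog genes 3 rose, led by the co-receptor Gas1 (0.49 ± 0.10, adjusted p = 0.00415). Of 18 Notch genes 4 rose and 0 fell: Dll4, Notch4, Hey1 and Heyl, by 0.82, 0.78, 0.67 and 0.45. Without replicate 1 of either group 2 Notch genes rose, as with array signal as a covariate. The rises became 1 in each of the Hedgehog and BMP lists without PEE-PH replicate 1 or 2 or PH replicate 1 or 3. The calls of Dll4 and Heyl were among those that ended (adjusted p up to 0.0943 and 0.0672). Without PEE-PH replicate 1 or PH replicate 3, 0 Wnt genes rose. Among 20 hair follicle stem cell genes 1 fell, the skin chemokine Ccl27a, whose call ended whichever array was left out.

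Matrix and contractile genes had members on both sides, where 5.14% of all genes rose and 7.47% fell. Of 26 matricellular proteins and proteoglycans 5 fell and 1 rose (median -0.07). The growth factor Ccn2, induced by TGF-beta and by stretch (chromosome 10, 24318281 to 24318340), had 6.32, 6.602 and 6.39 in PEE-PH follicles, against 16.3, 16.96 and 14.8 in PH follicles. It fell by 1.31 ± 0.08 (adjusted p = 1.62e-08). Its relative Ccn1, the angiogenesis inhibitor Thbs1 and the tenascin Tnn fell by 0.99, 1.22 and 1.06, and Tnxb rose by 0.73 ± 0.15 (adjusted p = 0.00461). Of 12 tested smooth muscle and dermal sheath markers 3 fell and 1 rose, the intermediate filament gene Des, which is also on the skeletal muscle list and whose call ended without PH replicate 3. The actin-binding Tagln had 9.49, 9.58 and 14.8 with PEE-PH, against 19.7, 21.5 and 25.3 with PH, and fell by 1.00 ± 0.15 (adjusted p = 0.000359), calponin Cnn1 and the pericyte proteoglycan Cspg4 fell by 1.08 and 0.58, and smooth muscle actin Acta2 did not pass (-0.14). Of 27 collagen chains 5 rose and 0 fell, among them the basement membrane chains Col4a1 and Col4a2 (0.58 and 0.64), with 2 called without PEE-PH replicate 1 or PH replicate 3 and 3 without PEE-PH replicate 3 or PH replicate 2. Of 25 metalloproteinases and inhibitors 3 rose and 2 fell. The gelatinase Mmp2 had 22.9, 18.2 and 16.2 with PEE-PH, against 9.73, 9.76 and 8.12 with PH, and rose by 1.04 ± 0.19 (adjusted p = 0.00193), while the stromelysin Mmp3 and the inhibitor Timp1 fell by 0.91 and 0.42. The call of Mmp3 ended whichever array was left out (adjusted p up to 0.18) and that of Timp1 in 4 of 6 cases (up to 0.15), and with no filter on dim probes, with array signal as a covariate or with only these 6 arrays 0 of this list fell. The 3 rises became 1 without replicate 1 of either group.

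In the VEGF system, named by the study's title, 2 receptor genes rose and no ligand passed. The ligand Pgf (chromosome 12, 86508335 to 86510337) had 1.48, 1.3 and 1.22 with PEE-PH, against 1.19, 1.36 and 0.904 with PH, with overlapping groups, and its difference of 0.23 ± 0.14 (adjusted p = 0.321) did not pass. Vegfa had 7.74, 7.67 and 7.59 with PEE-PH, against 7.73, 6.73 and 5.27 with PH, and did not pass either (0.24 ± 0.16, adjusted p = 0.376), nor did Vegfc (-0.34 ± 0.12, adjusted p = 0.0748). The receptor Flt1, also called VEGFR-1, which binds both Pgf and Vegfa (chromosome 5, 148373791 to 148373850), had 3.31, 2.996 and 2.75 with PEE-PH, against 2.14, 1.98 and 1.72 with PH. It rose by 0.63 ± 0.15 (adjusted p = 0.00854), with no overlap, as for 14.5% of all genes in this direction. Without PEE-PH replicate 1 the call ended (adjusted p = 0.0504). The co-receptor Nrp1 had 4.22, 3.84 and 3.97 with PEE-PH, against 2.99, 2.67 and 2.704 with PH, and rose by 0.53 ± 0.08 (adjusted p = 0.000419), a call that no single array ended. The receptor Kdr did not pass (0.32 ± 0.13, adjusted p = 0.112). In all 2 of 10 ligands and receptors rose and 0 fell, with a median of 0.28, where 5.14% of all genes rose.

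Blood endothelial markers moved the same way as Flt1. Of 20 tested 9 rose and 0 fell (median 0.50), where 5.14% of all genes rose. By slide the list medians were 0.76, 0.21 and 0.45. The junction gene Cdh5 had 2.96, 2.63 and 2.73 with PEE-PH, against 1.63, 1.87 and 1.63 with PH, and rose by 0.70 ± 0.16 (adjusted p = 0.00857), while Cldn5, Sox18 and Tek rose by 0.63, 0.63 and 0.60, and Plvap did not pass (0.32). The summed signal of the 20 markers was 92.9, 78.9 and 79.5 with PEE-PH, against 66.5, 78.8 and 68.8 with PH. The count was 1 without PEE-PH replicate 1, 1 without PH replicate 3, 2 without PH replicate 1 and 4 without PEE-PH replicate 2, and 3 once array signal was a covariate. Among 27 other vascular factors 7 rose and 2 fell: Angpt4, the endothelin receptor Ednrb and Angptl2 rose by 1.11, 0.76 and 0.77, and the vasoconstrictor Edn1 had 0.773, 0.892 and 0.793 with PEE-PH, against 1.33, 1.47 and 1.601 with PH, a fall of 0.84 ± 0.09 (adjusted p = 9.13e-06). The 7 rises became 2 without PEE-PH replicate 1, 3 without PH replicate 1 or 3, 4 without PEE-PH replicate 2 and 2 with array signal as a covariate, and the call of Angpt4 ended without replicate 1 of either group (adjusted p up to 0.0855). The part of endothelial RNA content in the change of Flt1 was not tested.

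Skeletal muscle genes varied among the PH arrays. Of 22 tested 12 rose and 0 fell (median 1.04), where 5.14% of all genes rose. By slide the list medians were -0.03, 1.13 and 1.93. The fast myosin Myh4 (chromosome 11, 67073834 to 67073893) had 2.78, 3.25 and 2.91 with PEE-PH, against 2.14, 0.952 and 0.348 with PH, which is a rise of 1.74 ± 0.47 (adjusted p = 0.0201). Its PEE-PH arrays were alike and its PH arrays were not, and the order of the PH arrays was the same for Myh8, Des, Ckm and Tnnt3. Over the list, the summed signal was 135, 168 and 174 with PEE-PH, against 142, 76.3 and 38.7 with PH. Without PH replicate 3, 0 members rose, and without PEE-PH replicate 2, 1 did, while without PH replicate 1, 15 did. Without PEE-PH replicate 1, PEE-PH replicate 3 or PH replicate 2 it was 4, 3 and 5 members. With only these 6 arrays in the fit 0 did. Vibrissa pads carry striated muscle around the follicles, and the amount that stayed on isolated follicles is not given in the sources used here.

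Nerve and cytoskeleton genes split. The neurofilament genes Nefm and Nefl and the microtubule gene Map7d2 were not well above background on any PH array and rose. Nefm (chromosome 14, 68737598 to 68737657) had 0.0797, 0.118 and 0.0918 with PEE-PH, against 0.01995, 0.0207 and 0.0175 with PH. By the same rough limit as for Ifnb1 it was 3.98-fold higher (adjusted p = 7.37e-06). For Nefl the limit was 1.48-fold higher (0.000921) and for Map7d2 1.29-fold (0.000432). All 3 calls ended after normexp background correction, where the differences were 0.19 for Nefm, -0.00393 for Nefl and -0.02 for Map7d2. Stmn2, Gap43 and Tubb3, which neurons use for axon growth, fell by 0.57, 0.46 and 0.38, so 3 of 17 in that list rose and 3 fell. Among all genes 5.14% rose and 7.47% fell. The call of Gap43 ended in 3 of 6 cases when 1 array was left out (adjusted p up to 0.0853). Of 11 Schwann cell and nerve markers 1 rose, the myelin gene Pmp22, whose call ended whichever array was left out.

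Retinoid and serine metabolism had members on both sides, where 5.14% of all genes rose and 7.47% fell. The retinoic acid hydroxylase Cyp26a1 (chromosome 19, 37775566 to 37775625) had 0.009299, 0.005099 and 0.00563 with PEE-PH, against 0.0375, 0.0557 and 0.0589 with PH. By the same rough limit as for Ifnb1 it was 2.30-fold lower (adjusted p = 0.000116). Aldh1a3, which makes retinoic acid, fell by 0.77, while Lrat, which stores retinol as an ester, rose by 0.72 ± 0.12 (adjusted p = 0.000879). In all 3 of 20 retinoid genes rose and 4 fell, and 1 rose when any single array other than PEE-PH replicate 3 was left out. Of 26 ATF4 targets 5 rose, or 3 without PEE-PH replicate 1 or PH replicate 3, and 6 fell: besides Slc7a11, the stress cytokine Gdf15 had 1.67, 1.91 and 2.01 with PEE-PH, against 1.002, 0.842 and 0.794 with PH, and rose by 1.09 ± 0.12 (adjusted p = 1.92e-05), whereas all 3 enzymes of serine synthesis, Phgdh, Psat1 and Psph, and the asparagine synthetase Asns fell, by 0.59, 0.47, 0.52 and 0.46. Atf4 did not pass (-0.22). Of 21 tested AHR targets and xenobiotic genes 6 rose and 2 fell. The largest rise among them was that of Nqo1, which was described with the NRF2 targets. The AHR repressor Ahrr had 0.0734, 0.0646 and 0.0745 with PEE-PH, against 0.0176, 0.0312 and 0.0207 with PH, and was well above background on all PEE-PH arrays and on 1 of 3 PH arrays. The fit gave a rise of 1.65 ± 0.28 (adjusted p = 0.000967), a size of the fit and not a bound, and the call ended after normexp (0.08). The receptor Ahr and its target Tiparp did not pass (0.09 and 0.14), and the epidermal cytochromes Cyp2b19 and Cyp3a13 fell by 0.62 and 0.54, the call of the second ending in 4 of 6 cases when 1 array was left out.

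The same step, adding PEE, was made in the series on 3 other media, with no array shared with the comparison here. PEE added to plain medium raised 1148 genes (5.2% of those tested) and lowered 1256 (5.69%). PEE added to TA changed 6.66%, with 671 higher (3.04%) and 798 lower (3.62%), and PEE added to PH-TA raised 1899 (8.61%) and lowered 1084 (4.91%). Tested gene by gene as a difference of differences, 0 genes passed between the PEE effect with PH and that without PH (limma, 2473 at an unadjusted p under 0.05), and 0 between the effect with PH and that with TA (634 unadjusted). The first of these counts was 5290 with normexp, 4628 with no filter on dim probes, 39 with a replicate block and 26 without control replicate 3, and the second was 0 under every alternative run. The 75th percentile of signal was 142 to 147 on PEE arrays and 155 to 190 on control arrays. PEE thus went with dimmer arrays in plain medium and with brighter arrays on PH. Array brightness and the treatments cannot be told apart in the difference between these 2 effects. By the fit reported here, a gene called with PH but not in plain medium or with TA, or the reverse, is not shown to differ. The PEE effects in plain medium and with TA were not tested against each other. Of the 2782 genes called with PH, 1201 were called in the same direction without PH (43.2% of the first list and 49.96% of the second) and 6 in the opposite one, and 1115 in the same direction with TA (40.1% and 75.9%) and 0 in the opposite one.

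With TA also present, many genes passed this test. Between the PEE effect with PH and that with PH-TA 2951 genes passed, 987 with a higher and 1964 with a lower effect with PH, which are 4.47% and 8.90% of those tested, with a median of -0.08. The split depended on scaling: 33.4% of the calls were higher here, 50.4% after quantile normalization, 52.2% in the authors' value table and 18.3% after normexp background correction. Of 20 blood endothelial markers 15 had a higher effect with PH, with a median change of 0.50 on adding PEE to PH and -0.34 on adding it to PH-TA. Of 27 collagen chains 11 did (medians 0.14 and -0.50). Of 45 cell cycle genes 14 had a lower effect with PH (medians -0.44 and -0.08), as had 24 of 30 ribosomal protein genes (medians -0.17 and 0.20). NRF2 targets differed in 4 genes upward and 2 downward of 37 (medians 0.73 and 0.75), cholesterol genes in 3 downward of 24 (0.61 and 0.83), and antiviral genes in 0 of 34 (-1.35 and -0.82). The count of 2951 varied with the setting, and was 2024 after quantile normalization, 1704 in the authors' value table and 9677 after normexp. No gene passed once array signal entered the fit as a covariate. The count was 0 without replicate number 1, 0 without replicate number 2 and 1999 without replicate number 3. In the first 2 of these fits 3222 and 4544 genes had an unadjusted p under 0.05 (limma). Such fits also hold fewer arrays, and the part of single slides was not tested apart from that. Without single arrays the count was 1127 (PH-TA replicate 1), 1159 (PEE-PH replicate 1), 1795 (PH replicate 3) and 1863 (PH replicate 1), and otherwise 2056 to 3741. The 75th percentile of signal was 203 to 248 on the PH-TA arrays and 175 to 187 on the PEE-PH-TA arrays, so that PEE went with brighter arrays on PH and with dimmer arrays on PH-TA, and array brightness and the treatments cannot be told apart in this difference.

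**Figure D4:**
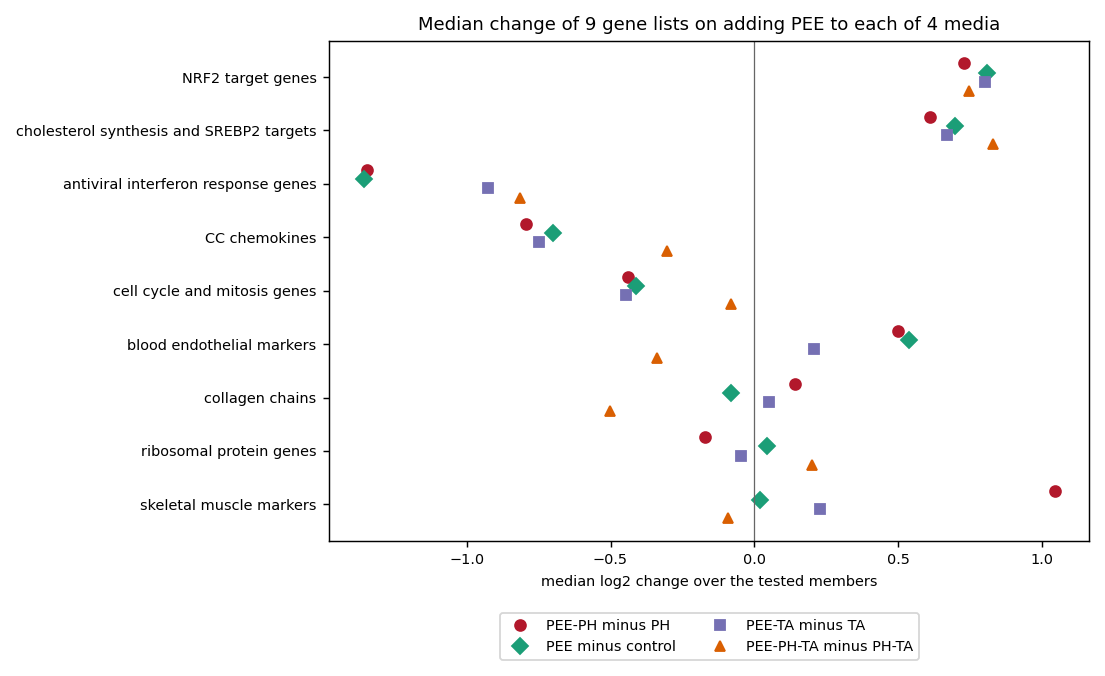
Median log2 change of 9 gene lists on adding PEE to 4 media, each from its own 6 arrays (PEE-PH minus PH, PEE minus control, PEE-TA minus TA, PEE-PH-TA minus PH-TA). The NRF2 medians lie between 0.73 and 0.81 and the cholesterol medians between 0.61 and 0.83, while the endothelial, collagen, ribosomal and muscle medians with PH-TA have the opposite sign to those with PH.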

How the data were processed

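Each sample was hybridised to a one-colour Agilent array, and the deposited scanner files hold the processed intensity of each spot as the Agilent program Feature Extraction writes it; version 12.0.3.1 is named in the submitters' processing notes. The labels name biotin as the label, and the scans hold 1 green channel. The authors' deposited value table holds values on a log2 scale, of which 23 of 24 columns correlated best with their own scan, all but PH-TA replicate 1 (slope 0.83 to 0.88, so differences there are smaller); its centring and background steps are not given in the sources used here, and it served as an alternative. Probe positions are mm9, per the file headers.

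Control spots were left out, leaving 59305 spots of 56605 probes. Signals were divided by the 75th percentile of the array and taken to log2. A probe was kept if all 3 arrays of any group had it well above background (33340 probes). The brightest probe on average represented each of 22065 genes or transcripts, 15544 of them with a gene name. R 4.3.3 with limma 3.58.1 (lmFit, eBayes, with the data.table package in version 1.17.8) fitted all 24 arrays by group, with 16 residual and 2.19 prior degrees of freedom, Benjamini-Hochberg adjustment and a threshold of 0.05, and was tested on simulated data. The number of arrays limits the precision.

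Genes were named by 1 rule: up to 15 rises and 15 falls of largest size among called genes with no overlap between groups, leaving out gene models, up to 5 genes each way in the tests of differences between effects, and for each list up to 4 called members each way and up to 3 uncalled members with the highest mean. Pgf, Flt1, Vegfa, Vegfc, Kdr and Nrp1 were named in any case. Hmgcs1 and Krt71 were chosen after their values were seen. Some genes that the rule gives are not reported here. The gene lists and their members were chosen with earlier results of these data known. Replicate numbers mark slides, and same-numbered arrays correlated in their deviations from group means at -0.11, 0.11 and 0.17, so the numbers were not taken as pairs. Alternatives were quantile normalization, normexp with an offset of 50, the authors' table, no filter on dim probes, averaging a gene's probes, a replicate block, a trended and robust prior, array signal as a covariate, the compared arrays alone, and each array or replicate number left out.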

Additional observations from a re-analysis of the deposited data

Results flagged for a closer look

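The effect of adding PEE to PH and that of adding PEE to PH-TA differed in 2951 genes or transcripts by a test of the difference itself. That count was 0 without replicate number 1, 0 without replicate number 2 and 1999 without replicate number 3, of which 1480 were among the 2951, and it was 0 with array signal as a covariate. Positive differences mean a higher effect with PH.

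The mast cell protease Mcpt1 had a difference of 3.11 ± 0.99 (limma, adjusted p = 0.0442), made of 1.08 on adding PEE to PH and -2.03 on adding it to PH-TA. Dipk1c differed by 2.51 ± 0.51 (adjusted p = 0.00707, effects 2.14 and -0.37). The protocadherin Pcdh10 differed by 2.41 ± 0.78 (adjusted p = 0.0479, effects 1.44 and -0.97), and the secreted protein Scube1 by 2.32 ± 0.75 (adjusted p = 0.0492, effects 0.98 and -1.34). By themselves the effects with PH of Mcpt1, Pcdh10 and Scube1 did not pass (limma, adjusted p = 0.347, 0.0953 and 0.253).

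On the other side, Olfr170, an olfactory receptor, differed by -2.25 ± 0.55 (adjusted p = 0.0156, effects -1.38 and 0.87). Efcc1 differed by -2.14 ± 0.55 (adjusted p = 0.0186, effects -1.52 and 0.62), and the pseudogene Fthl17-ps1 by -1.98 ± 0.54 (adjusted p = 0.0243, effects -1.59 and 0.40). Rergl differed by -1.91 ± 0.58 (adjusted p = 0.0387, effects -0.67 and 1.24), and Cyp26a1 by -1.78 ± 0.56 (adjusted p = 0.0430, effects -2.95 and -1.17). Relative signals of these genes were low, and some arrays of each comparison were not well above background, so the sizes are those of the fit and not bounds. After normexp background correction the differences of Dipk1c, Pcdh10 and Scube1 changed sign (-0.19, -0.19 and -0.12). The effect of Rergl with PH did not pass by itself (limma, adjusted p = 0.317). Of the genes that the naming rule gives for this difference, 8 lost their call and 2 kept it without PH-TA replicate 1. Without PH-TA replicate 2, 5 lost it and 5 kept it, and without PH-TA replicate 3, 2 lost it and 8 kept it.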

How the results depend on the processing

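The 2782 calls of PEE-PH against PH numbered 2611 after quantile normalization, 3518 after normexp, 2370 in the authors' table and 2060 with no filter on dim probes, where the median of all genes was -0.10. They fell to 1402 with array signal as a covariate and to 894 with only the compared arrays. Leaving out 1 array gave 1376 to 2324, and leaving out 1 replicate number 634 to 965. The 0 calls of the difference from PEE without PH became 5290 with normexp, 4628 with no filter (median of all genes -0.14), 39 with a replicate block and 1 with only the compared arrays, and 0 to 26 without 1 array or replicate number. The 0 calls of the difference from PEE with TA were 0 under every alternative run, leaving out arrays or replicate numbers (0 to 0) included. The 2951 calls of the difference from PEE with PH-TA became 9677 with normexp (median of all genes -0.17), 8571 with no filter (-0.22), 1704 in the authors' table, 0 with array signal as a covariate and 1122 with only the compared arrays, 1127 to 3741 without 1 array and 0 to 1999 without 1 replicate number. Single genes changed sign as follows. With normexp, PEE-PH minus PH was -0.00699 for Dipk1c, -0.00643 for Gpr143, -0.0141 for Wnt16, -0.0223 for Map7d2, -0.00393 for Nefl, -0.0340 for Pcdh10 and -0.0638 for Scube1, and the difference from PH-TA was -0.19 for Dipk1c and Pcdh10 and -0.12 for Scube1. With the mean of probes Cdk1 was -0.25 and Pdxk -0.0253, and within slide 1 Ckm was -0.0783, Il19 -0.0715 and Tnnt3 -0.11. Leaving out arrays or replicate numbers moved Scube1 between -0.16 and 1.74, Ugdh between -0.25 and 0.0664, Lyz2 between -0.000428 and 0.30 and Nfkbia between -0.10 and 0.15. The causes were not tested. With the replicate number as a block there were 2910 calls of PEE-PH against PH, of which 2654 were among the 2782, and the deviations of same-numbered arrays did not show a pairing. Signal over background leaves only a rough limit on the fold of genes such as Ifnb1 and Cyp26a1.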

Other observations

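Smaller groups of genes had few members that passed, where 5.14% of all genes rose and 7.47% fell. Of 22 p53 targets 4 rose and 0 fell, among them the growth inhibitor Gadd45a, by 0.50, and Ddit4, which restrains mTOR signalling, by 0.95. The 4 became 2 without PEE-PH replicate 3 and 1 with array signal as a covariate, and the call of Ddit4 ended in 5 of 6 cases when 1 array was left out. Of 26 heat shock and ER chaperones 4 rose and 0 fell, led by the inducible chaperone Hspa1a (0.71 ± 0.11, adjusted p = 0.000442), with 2 left without replicate 2 of either group. Of 19 circadian clock genes 3 rose, with the clock output gene Dbp at 0.59, and 1 fell, the repressor Cry1, by 0.43. Without PEE-PH replicate 1 or PH replicate 3, 1 of these rose and 0 fell. Of 32 FGF, IGF and TGF-beta hair cycle factors 6 rose and 2 fell: Tgfb2, a growth factor known to promote regression of the follicle, rose by 0.87 ± 0.25 (adjusted p = 0.0298), and the IGF receptor Igf1r by 0.48 ± 0.11 (adjusted p = 0.0105). The 6 rises became 2 without PEE-PH replicate 1 or 2, 1 without PH replicate 3 and 2 with array signal as a covariate. The call of Tgfb2 ended in 4 of 6 cases when 1 array was left out (adjusted p up to 0.148) and that of Igf1r without PEE-PH replicate 2 or PH replicate 3 (up to 0.058), and Igf1r was 0.01 with the mean of all its tested probes.

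Cornified envelope genes, which form the outer layer of the epidermis, had 1 of 30 members higher and 4 lower, with Sprr4 and Asprv1 lower by 0.50 and 0.37. The 4 became 0 without PEE-PH replicate 3, 1 or 2 without any other single array, and 1 after quantile normalization, in the authors' value table and with no filter on dim probes, and the call of Asprv1 ended whichever array was left out. Of 30 ribosomal protein genes 0 rose and 4 fell, with a median of -0.17. The 4 became 0 without PEE-PH replicate 2 or PH replicate 1, after quantile normalization, in the authors' value table and with array signal as a covariate, 1 without PEE-PH replicate 1 or PH replicate 2, 12 without PEE-PH replicate 3 and 13 with a trended and robust prior. Among markers of other cells, 2 of 10 melanocyte genes rose (Gpr143 by 0.77 and Kit by 0.53). The call of Gpr143 ended in 5 of 6 cases when 1 array was left out (adjusted p up to 0.16) and after normexp (-0.00643), and with array signal as a covariate 0 of the 10 passed. Of 7 erythroid genes 0 passed (limma, with 1 at an unadjusted p under 0.05).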
